A study of Mus musculus with 6 samples.

Results

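The genes described here hold T cells in a resting state and were followed in mouse CD8+ T cells before and after activation. The set, 10 of the 54446 genes listed in the files, was chosen by gene name for known roles in quiescence: Klf2, Klf3, Klf6, Foxp1, Tob1, Btg1, Btg2, Slfn2, Pdcd4 and Txnip. Earlier results of these data were known at that choice. All 10 passed the filter for testing (mean of at least 1 FPKM, sequenced fragments divided by transcript length and library total), as did 14991 genes in all. CD8+ T cells were isolated by negative selection from spleens of C57BL/6 mice aged 8 weeks, with no genetic change in any group. Unstimulated cells were sequenced without culture. Control cells were stimulated for 72 h by anti-CD3 and anti-CD28 fixed to the plate, antibodies that engage the T cell receptor and its co-receptor, and SMF cells were stimulated in the same way for 72 h on 0.3 T magnets, a moderate static magnetic field. Each group had 2 libraries, and the sources used here do not say whether these came from separate or pooled mice, so p-values measure the spread between libraries, which may be technical.

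A naive T cell in spleen or lymph node is kept small, metabolically quiet and out of the cell cycle by an active programme rather than by the lack of a signal. Transcription factors of the Krüppel-like and forkhead families maintain the trafficking receptors and restrain cell division, the TOB/BTG proteins recruit the CCR4-NOT deadenylase that shortens the poly(A) tails of mRNAs, PDCD4 blocks the helicase EIF4A in translation, and TXNIP limits thioredoxin and glucose uptake. T cell receptor signalling switches many of these genes off as the cell grows and divides.

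Both cultures carried the transcripts of activated cells. Il2ra, the high-affinity IL-2 receptor chain, was at 0.708 and 0.894 FPKM in Unstimulated libraries, 52.4 and 59.2 FPKM in Control and 86.5 and 113 FPKM in SMF. Gzmb, the cytotoxic protease of killer T cells, was at 10.2 and 11.7 FPKM in Unstimulated libraries, at 1494 and 1565 FPKM in Control and at 2282 and 4283 FPKM in SMF. Mki67, a marker of dividing cells, was at 10.5 and 7.64 FPKM, 49.3 and 59.9996 FPKM, and 73.8 and 86.3 FPKM in the same order. Of 8 such activation genes 8 were called higher in Control than in Unstimulated cells (12.3% of all genes), these 3 by 4.98, 7.01 and 2.47 on the log2(FPKM + 1) scale.

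Depth, run and composition differed between libraries. Transcript coverage summed to 64.4 to 172 Mb in the 4 Unstimulated and Control libraries and to 227 and 259 Mb in SMF, and between 9.17% and 19.7% of tested genes were listed at 0 in a library. The folder dates in the file headers place replicate 1 of Unstimulated and Control together, replicate 2 of both together, and both SMF libraries in a later set, so the field and that set cannot be told apart. Where SMF is compared with Unstimulated cells, stimulation and that set cannot be told apart either. Protein-coding genes held 49.1% to 50.5% of all FPKM in Unstimulated and Control libraries and 69.2% and 68.7% in SMF. A gene was called different when its fold was at least 2 and its unadjusted limma p at most 0.05, the thresholds of the study, and differences are given as log2(FPKM + 1), which understates the change of low genes.

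Markers of other cell types were found in the starting population. All 6 CD8+ T cell markers were present in every library, and they summed to 722 and 843 FPKM in Unstimulated, 411 and 701 FPKM in Control, and 919 and 755 FPKM in SMF. Cd8a and Cd8b1, the chains of the CD8 co-receptor, were called lower in Control than in Unstimulated (-1.08 and -1.31), and Cd8a and Cd3d, a chain of the T cell receptor complex, were called higher in SMF than in Control (2.01 and 1.395). The 4 B cell markers summed to 109 and 91.7 FPKM in Unstimulated libraries, to 23.3 and 7.78 FPKM in Control and to 4.50 and 2.43 FPKM in SMF. The 5 myeloid markers in the files summed to 131 and 151 FPKM in Unstimulated, 47.0 and 53.8 FPKM in Control, and 41.1 and 50.5 FPKM in SMF. Csf1r, the receptor for the macrophage growth factor, held nearly all of this in stimulated libraries (47.0 and 53.8 FPKM in Control, 41.1 and 50.4 FPKM in SMF) and was not called against its 68.5 and 63.9 FPKM in Unstimulated libraries. The other 4 markers were at or near 0 in stimulated libraries. Lyz2, at 42.4 and 74.0 FPKM in Unstimulated, was listed at 0 in stimulated libraries. Cd4 was at 2.05 and 4.68 FPKM in Unstimulated libraries. The 3 NK cell markers summed to 40.7 and 20.4 FPKM in Unstimulated and to 2.97 to 10.3 FPKM in stimulated libraries. Eomes held 26.9 and 12.7 FPKM of this in Unstimulated libraries and all of it in stimulated ones, where Ncr1 and Klrb1c were listed at 0. In Unstimulated libraries Ncr1 was at 10.8 and 0.947 FPKM and Klrb1c at 3.04 and 6.71 FPKM. Which cells expressed Eomes was not tested. Alas2 of the red cell lineage was at 18.3 and 16.3 FPKM in Unstimulated and at 1.51 to 10.1 FPKM in stimulated libraries. Hba-a1, the other red cell marker found, was at 0 and 2.77 FPKM in Unstimulated and at 0 in stimulated libraries. The platelet marker Gp9 was at 0 throughout. The part of these cells in the falls described here was not tested, and fewer cells of a type cannot be told apart from less RNA per cell.

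Because the 10 genes were chosen with earlier results of these data known, counts and medians set beside those of all genes carry no independent weight. Of the 10 genes, 6 fell and none rose between Unstimulated and Control cells, where 12.6% of all tested genes were called lower and 12.3% higher. Between Unstimulated and SMF cells the same 6 fell and Slfn2 rose, where 14.8% of tested genes were called lower and 22.4% higher. The 6 were Klf2, Klf3, Tob1, Btg1, Pdcd4 and Txnip, and Klf6, Foxp1 and Btg2 were not called in either comparison. The median difference of the 10 genes was -1.54 in Control and -1.44 in SMF against Unstimulated, and that of all tested genes was -0.05 and 0.27. With libraries scaled to one median, the SMF values were -1.70 and 0.01, and the genes called in SMF against Unstimulated went from 3351 higher and 2226 lower to 2756 and 2694. These comparisons share the Unstimulated libraries and are not independent. In that of SMF, stimulation, the field and the later set of libraries cannot be told apart.

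**Figure D1:**
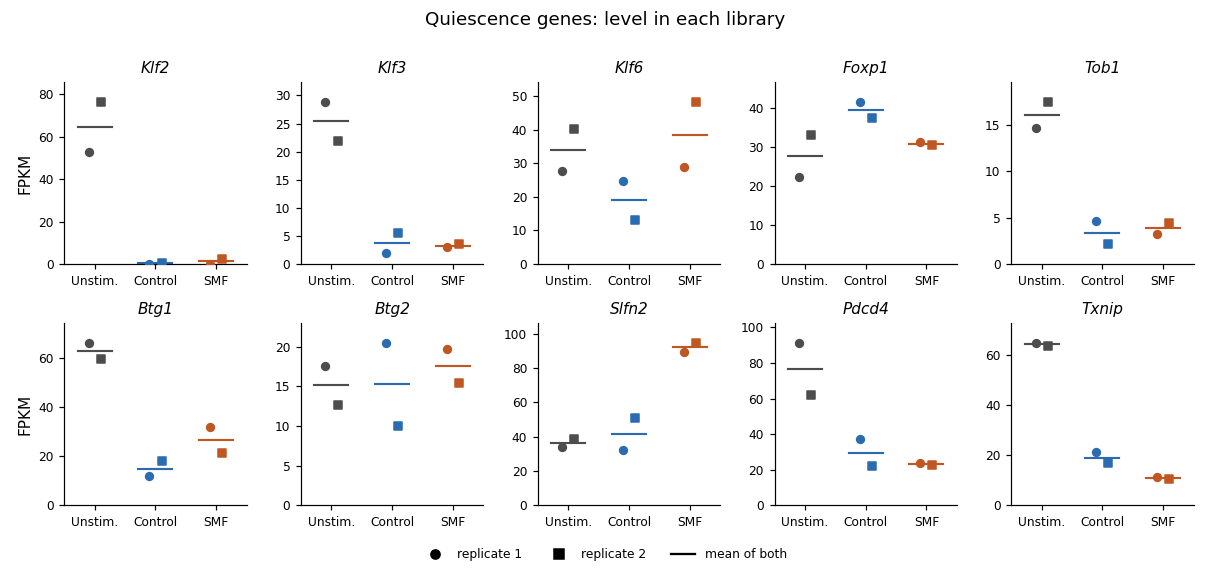
Level in FPKM of each of the 10 quiescence genes in the 2 Unstimulated, 2 Control and 2 SMF libraries (circle, replicate 1, square, replicate 2, line, mean of both; each vertical axis starts at 0). Klf2, Klf3, Tob1, Btg1, Pdcd4 and Txnip are lower in all 4 stimulated libraries than in both Unstimulated ones, and Slfn2 is highest in the SMF libraries.

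The plot of levels by library shows the 6 that fell beside the 4 others. In Unstimulated cells the order of mean levels ran from Pdcd4 (76.6 FPKM) through Klf2 (64.6), Txnip (64.4), Btg1 (62.6), Slfn2 (36.3), Klf6 (33.8), Foxp1 (27.7), Klf3 (25.4) and Tob1 (16.1) to Btg2 (15.1 FPKM). The libraries of the 4 highest overlapped one another, as did those of Slfn2 and Klf6, of Klf6 and Foxp1, of Foxp1 and Klf3, and of Tob1 and Btg2, so only the steps from Btg1 to Slfn2 and from Klf3 to Tob1 exceeded the spread between libraries. In Control cells Slfn2 (41.6 FPKM) and Foxp1 (39.7) led and Klf2 was last. In SMF cells Slfn2 led at 92.2 FPKM, above both Klf6 libraries, and Klf2 was again last.

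Summed over the 10 genes, the level was 420 and 426 FPKM in Unstimulated libraries, 196 and 176 FPKM in Control and 243 and 254 FPKM in SMF.

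Among the Krüppel-like factors, Klf2 and Klf3 had the largest differences of the 10 genes between Control and Unstimulated cells. Klf2 keeps T cells quiescent and drives the receptors that let them circulate. It stood at 52.7 and 76.5 FPKM in Unstimulated libraries, was listed at 0 and 0.524 FPKM in Control and at 0 and 2.56 FPKM in SMF. No stimulated library came near either Unstimulated one. It fell by 5.71 on the log2 scale in Control (SE 0.72, limma, Benjamini-Hochberg adjusted p = 0.0134) and fell by 5.09 in SMF (SE 0.72, adjusted p = 0.00835 by the same test). The size of this fall rests on the constant added before the logarithm, and ran from -3.71 with 5 FPKM added to -7.99 with 0.1 FPKM added in Control. In Control replicate 2, the Klf2 value came from 210 sequenced bases (coverage times length, over a transcript of 1847 bases), against 8784 and 24548 in Unstimulated libraries. Klf2 lies at chr8:72319033-72321656 on the plus strand of GRCm38, and all its reads were given to its transcript of 3 exons.

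Klf3, a repressor that shares DNA sites with Klf2, was at 28.9 and 22.0 FPKM in Unstimulated libraries, 1.99 and 5.55 FPKM in Control and 2.94 and 3.61 FPKM in SMF. The stimulated libraries all lay below 6 FPKM and the groups did not overlap. Klf3 fell by 2.56 in Control (SE 0.53, limma, Benjamini-Hochberg adjusted p = 0.0385) and fell by 2.62 in SMF (SE 0.53, adjusted p = 0.0198). Klf6, an immediate-early member of the family, followed another course, with 27.6 and 40.1 FPKM in Unstimulated libraries, 24.8 and 13.1 FPKM in Control, and 28.8 and 48.3 FPKM in SMF. Its groups overlapped between Unstimulated and SMF, and the difference of Control from Unstimulated, -0.85 (SE 0.46, 95% interval -1.96 to 0.26), did not pass the test. Klf3 spans chr5:64803388-64832901 and Klf6 chr13:5861482-5870394, both on the plus strand.

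Foxp1 is the forkhead factor that holds naive T cells in quiescence and represses the IL-7 receptor gene. It was at 22.3 and 33.1 FPKM in Unstimulated libraries, 41.7 and 37.7 FPKM in Control and 31.3 and 30.5 FPKM in SMF. The SMF values lay between the Unstimulated ones, and the Control values above them. The difference of Control from Unstimulated was 0.53 (95% interval -0.25 to 1.31) and that of SMF was 0.18 (-0.60 to 0.96), neither past the test. The gene spans chr6:98925338-99522721 on the minus strand, and its reads were spread over 4 to 10 transcripts per library. The transcript with the highest mean FPKM, of 19 exons and 7177 bases, held between 0% and 56.0% of the gene's FPKM in a library, so these files do not settle which Foxp1 form was present.

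The TOB/BTG family was split. Tob1, a brake on T cell division that recruits the deadenylase, was at 14.6 and 17.5 FPKM in Unstimulated libraries, 4.60 and 2.15 FPKM in Control and 3.23 and 4.47 FPKM in SMF. Every stimulated library was below 5 FPKM. Tob1 fell by 2.02 in Control (SE 0.49, limma, Benjamini-Hochberg adjusted p = 0.0585) and fell by 1.82 in SMF (SE 0.49, adjusted p = 0.0438). The SMF call was lost without Unstimulated replicate 2 (-1.70) and without SMF replicate 1 (-1.64), where the unadjusted p rose above 0.05. Tob1 (chr11:94211454-94215495, plus strand) has 2 exons, and its first, of 278 bases, was listed at 0 coverage in all 6 libraries.

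Btg1, which maintains naive T cells together with Btg2 by promoting mRNA decay, was at 66.0 and 59.3 FPKM in Unstimulated libraries, 11.9 and 17.9 FPKM in Control, and 31.9 and 21.2 FPKM in SMF. The SMF libraries lay between the others, with no overlap of the groups. Btg1 fell by 2.02 in Control (SE 0.36, limma, Benjamini-Hochberg adjusted p = 0.0281) and fell by 1.23 in SMF (SE 0.36, adjusted p = 0.0559). The SMF call was lost without Unstimulated replicate 1 (-1.16), without Unstimulated replicate 2 (-1.31) and without SMF replicate 2 (-0.95). Btg2, its closest relative and a p53 target, was at 17.5 and 12.7 FPKM, 20.5 and 10.00004 FPKM, and 19.8 and 15.4 FPKM in Unstimulated, Control and SMF. The 3 groups overlapped throughout, and the difference of Control from Unstimulated was -0.05 with a 95% interval from -1.16 to 1.05. Btg1 spans chr10:96617006-96622809 on the plus strand and Btg2 chr1:134075170-134079120 on the minus strand.

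Pdcd4 and Txnip act on translation and metabolism. Pdcd4 was at 91.3 and 61.9 FPKM in Unstimulated libraries, 37.3 and 21.9 FPKM in Control, and 23.9 and 22.6 FPKM in SMF, with no overlap between Unstimulated and stimulated libraries. It fell by 1.36 in Control (SE 0.38, limma, Benjamini-Hochberg adjusted p = 0.0790) and fell by 1.65 in SMF (SE 0.38, adjusted p = 0.0278). The Control call was lost without Unstimulated replicate 1 (-1.09) and, at a fold just under the limit, without Control replicate 2 (-0.99). Txnip was at 65.0 and 63.9 FPKM in Unstimulated libraries, 21.1 and 17.0 FPKM in Control and 11.3 and 10.4 FPKM in SMF. The 3 groups stood in 3 separate steps. Txnip fell by 1.71 in Control (SE 0.31, limma, Benjamini-Hochberg adjusted p = 0.0285) and fell by 2.47 in SMF (SE 0.31, adjusted p = 0.00627). Pdcd4 spans chr19:53892231-53929861 and Txnip chr3:96557957-96561883, both on the plus strand.

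The sequence upstream of the genes was searched for letters known to be bound by factors of resting T cells. Shown are Btg1 and Txnip, which alone among the 10 hold GTAAACA, a forkhead (FOXO) core, on either strand in the 250 bases before a RefSeq start (GRCm38.p6, chr10:96616751-96617000 and chr3:96557707-96557956, plus strand, 5′ to 3′). Both fell, as did Klf2, Klf3, Tob1 and Pdcd4, which do not hold it there. Capitals mark GTAAACA or its complement TGTTTAC, and CCAAT or its complement ATTGG.
Btg1: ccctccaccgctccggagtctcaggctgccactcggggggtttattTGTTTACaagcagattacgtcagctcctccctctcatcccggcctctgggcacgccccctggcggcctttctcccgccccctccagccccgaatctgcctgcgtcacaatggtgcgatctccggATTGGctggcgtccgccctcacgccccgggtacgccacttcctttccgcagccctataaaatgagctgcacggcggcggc
Txnip: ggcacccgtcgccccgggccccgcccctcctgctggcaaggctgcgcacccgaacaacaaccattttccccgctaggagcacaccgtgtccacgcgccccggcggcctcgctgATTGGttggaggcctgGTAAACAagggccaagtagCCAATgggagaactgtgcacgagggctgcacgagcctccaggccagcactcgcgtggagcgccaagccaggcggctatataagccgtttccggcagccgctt

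In Btg1 the forkhead letters begin 204 bases before the start and in Txnip 121 bases before it, between a pair of CCAAT boxes. All 10 genes matched, with 13 starts in all. The Foxp1 starts lie 85648 to 407047 bases from that of its transcript with the highest mean FPKM. GTAAACA was in 2 of the 13 windows and in 3.17% of the 32851 mouse windows in the RefSeq table, CCAAT in 8 of 13 and in 33.9%, the E-box CACGTG in 1 of 13 (Klf6) and in 6.02%, and CCACACCC, a site of Krüppel-like factors, in 0 of 13 and in 3.196%, each on both strands. A match is a description of letters in this window and says nothing of binding.

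Slfn2, the Schlafen protein whose loss breaks T cell quiescence, went the other way. It was at 33.9 and 38.7 FPKM in Unstimulated libraries, 32.5 and 50.7 FPKM in Control and 89.6 and 94.8 FPKM in SMF. The Control libraries enclosed the Unstimulated ones, and both SMF libraries lay above all others. The difference of Control from Unstimulated was 0.16 (95% interval -0.60 to 0.93), and SMF was higher than Unstimulated by 1.32 (SE 0.32, limma, Benjamini-Hochberg adjusted p = 0.0313). With libraries brought to the same 75th percentile or to the same total over protein-coding genes, the SMF value was 0.99 and 0.84, under the fold limit. The higher protein-coding share of the SMF libraries moves with this difference, and beyond these values its part was not tested. The gene lies at chr11:83065112-83070678 on the plus strand.

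**Figure D2:**
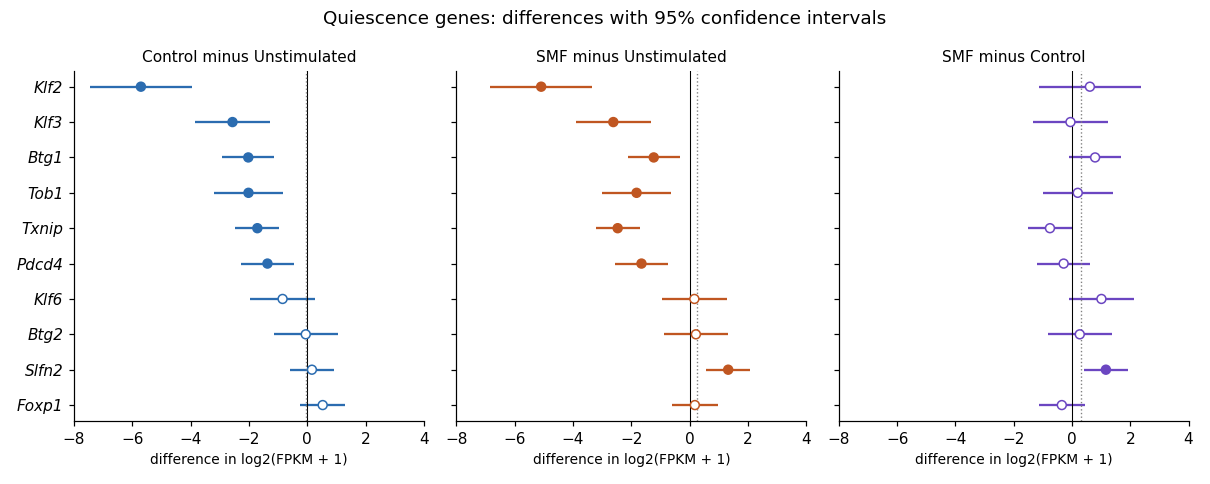
Differences in log2(FPKM + 1) of the 10 genes between groups, with 95% confidence intervals from limma (filled circles, called, with fold at least 2 and unadjusted p at most 0.05, open circles, not called). The dotted line marks the median of all tested genes, at -0.05, 0.27 and 0.32 from left to right, and the intervals of the 6 genes that fell lie wholly below 0 in both comparisons with Unstimulated cells.

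Since same-numbered replicates of Unstimulated and Control share a folder date in the file headers, the differences within those pairs were computed. Klf2 was lower in Control in both, at -5.75 and -5.67. Its Control values of 0 and 0.524 FPKM lie near the floor. The size of these differences, and how alike they are, is thus set largely by the Unstimulated level and the constant added. Klf3 (-3.32 and -1.81), Tob1 (-1.48 and -2.55), Btg1 (-2.37 and -1.68), Pdcd4 (-1.27 and -1.46) and Txnip (-1.58 and -1.85) were also negative in each pair. Klf6 (-0.15 and -1.54) had 1 difference near 0, Foxp1 was positive in both (0.88 and 0.18), and Btg2 (0.21 and -0.31) and Slfn2 (-0.06 and 0.38) changed sign. No such pair exists for SMF.

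The question of the magnet itself is the comparison of SMF with Control. Of the 10 genes, 1 was called higher, Slfn2, and 0 lower, where 12.5% of all tested genes were called higher and 5.72% lower. The median difference was 0.23 for the 10 genes and 0.32 for all genes tested as deposited. These medians were -0.11 and -0.02 with libraries scaled to one median, -0.07 and 0.05 with one 75th percentile, and -0.06 and 0.06 with the same protein-coding total, and calls over all genes went from 1868 higher and 857 lower to 877 and 1441, 876 and 1366, and 931 and 1307 under these scalings. Slfn2 was higher in SMF by 1.16 (SE 0.32, 95% interval 0.40 to 1.93, limma, Benjamini-Hochberg adjusted p = 0.162). It was higher in 2 of 2 SMF libraries than in both Control libraries. Scaled to one median per library, the difference was 0.82, under the fold limit, and without Control replicate 1 it was 0.85. No member passed an adjusted p of 0.05 by limma with Benjamini-Hochberg adjustment, 2 had an unadjusted p under 0.05, and 4 of all 14991 genes passed.

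Txnip had the next smallest p and lay lower in SMF, at -0.76 (95% interval -1.51 to -0.004, limma, Benjamini-Hochberg adjusted p = 0.236), which is under the fold limit. Both SMF libraries were below both Control libraries, and the difference was -1.10 with libraries scaled to one median. This holds for the gene as a whole. In the Txnip exons that share bases with a gene on the opposite strand, given below, SMF coverage lay above that of Control. Klf6 differed by 1.01 (-0.10 to 2.12) and Btg1 by 0.79 (-0.09 to 1.68), both with SMF libraries above Control libraries and neither called. Without Control replicate 1 the Klf6 difference was 1.45, and without Control replicate 2 that of Btg1 was 1.06, both then past the limits.

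For the other 6 genes the intervals were wide. Klf2 gave 0.61 (-1.14 to 2.37), Klf3 -0.05 (-1.33 to 1.23), Foxp1 -0.35 (-1.13 to 0.43), Tob1 0.20 (-0.998 to 1.39), Btg2 0.27 (-0.84 to 1.37) and Pdcd4 -0.29 (-1.21 to 0.63). A difference of 1, a fold of 2, lay inside the interval in both directions for Klf2 and Klf3, upward for Tob1 and Btg2, and downward for Foxp1 and Pdcd4. With both SMF libraries in one later set, the field and the set cannot be told apart for any of these values.

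Receptors known as targets of Klf2 or of forkhead factors were taken as a list, and 3 of the 4 described here fell with activation (12.6% of all genes in Control and 14.8% in SMF). S1pr1, which lets T cells leave lymphoid organs, was at 45.6 and 50.6 FPKM in Unstimulated libraries, 1.499 and 2.001 FPKM in Control and 0.972 and 0.551 FPKM in SMF. It fell by 4.16 in Control (SE 0.45, limma, Benjamini-Hochberg adjusted p = 0.00964) and fell by 4.81 in SMF (adjusted p = 0.00410). This was the largest fall of the 4, and no stimulated library was above 3 FPKM.

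Il7r, the survival receptor for IL-7, was at 59.5 and 56.9 FPKM in Unstimulated libraries, 26.3 and 16.5 FPKM in Control and 7.72 and 15.9 FPKM in SMF, and fell by 1.44 in Control (SE 0.44, limma, Benjamini-Hochberg adjusted p = 0.0999). Itgb7, an integrin chain for gut homing, was at 89.7 and 79.3 FPKM, 36.8 and 28.04 FPKM, and 32.9 and 20.5 FPKM, and fell by 1.36 in Control (SE 0.35, adjusted p = 0.0644). Both gene totals were lower in SMF as well (-2.29 and -1.66), each with non-overlapping libraries.

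Ccr7, the chemokine receptor for lymph node entry, ran opposite to the others. It was at 20.7 and 42.2 FPKM in Unstimulated libraries, 84.5 and 111 FPKM in Control and 93.8 and 104 FPKM in SMF. It rose by 1.68 in Control (SE 0.39, limma, Benjamini-Hochberg adjusted p = 0.0531) and by 1.70 in SMF (SE 0.39, adjusted p = 0.0281). Between SMF and Control, 0 of these 4 receptors were called (12.5% of all genes higher and 5.72% lower).

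**Figure D3:**
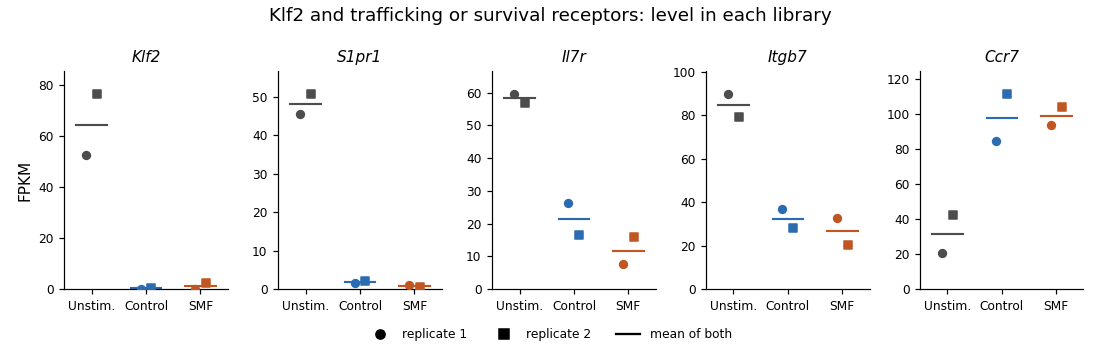
Level in FPKM of Klf2 and of 4 receptor genes in each library (circle, replicate 1, square, replicate 2, line, mean of both; vertical axes start at 0). Klf2 and S1pr1 are below 3 FPKM in all 4 stimulated libraries, Il7r and Itgb7 are lower there than in Unstimulated libraries, and Ccr7 is higher.

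Of 23 other regulators of T cell quiescence that were tested, 11 were called lower and 2 higher in Control against Unstimulated (12.6% and 12.3% of all genes), and 10 were not called. Their median difference was -1.07. In SMF 12 were lower and 1 higher against Unstimulated (14.8% and 22.4% of all genes), and between SMF and Control 0 were lower and 2 higher (5.72% and 12.5%). The 8 that fell furthest in Control were Ripor2 (-3.40), Rb1 (-3.18), Tsc2 (-2.91), Runx1 (-2.38), Zfp36l2 (-2.22), Tcf7 (-2.15), Lef1 (-1.88) and Rbl2 (-1.69). Rb1 is counted here by its gene total, though its fall came from a short transcript and not from its full-length one, as given below. Rbl2 is counted by its gene total too, at 34.6 and 22.8 FPKM in Unstimulated libraries and 10.7 and 6.02 FPKM in Control. Its 22-exon transcript overlapped between these groups. That transcript was at 11.6 and 8.46 FPKM in Unstimulated libraries, 9.02 and 4.18 FPKM in Control and 8.69 and 6.82 FPKM in SMF. Ripor2, a RhoA inhibitor of naive T cells, was at 62.7 and 56.8 FPKM in Unstimulated libraries and at 1.77 to 10.1 FPKM in the stimulated ones. Tcf7 and Lef1, the transcription factors of naive and memory T cells, were at 95.1 and 148 FPKM and at 79.0 and 80.1 FPKM in Unstimulated libraries, and each was below 45 FPKM in all 4 stimulated ones. Tsc2, a brake on mTORC1, was at 61.2 and 75.3 FPKM in Unstimulated libraries, 3.89 and 16.2 FPKM in Control, and 20.0 and 32.6 FPKM in SMF, and was called higher in SMF than in Control (1.53, limma, Benjamini-Hochberg adjusted p = 0.237).

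The Rb1 difference came from a short transcript. Rb1, the retinoblastoma cell cycle brake, was at 603 and 437 FPKM in Unstimulated libraries, but its 27-exon transcript was at 6.94 and 4.67 FPKM there, at 3.21 and 4.56 FPKM in Control and at 8.13 and 7.97 FPKM in SMF. A 2-exon transcript of 408 bases held 572 and 415 FPKM, and Rb1 shares 408 exon bases with Lpar6, a gene on the opposite strand that was itself at 3.14 and 7.20 FPKM. Zfp36l2 and Runx1, an mRNA decay factor and a T cell transcription factor, were at 58.2 and 56.6 FPKM and at 3.56 and 10.02 FPKM in Unstimulated libraries. The regulators that rose in Control were Vsir (1.52), the immune checkpoint VISTA, and Btg3 (1.404), an antiproliferative relative of Btg1 whose levels were 5.14 and 4.58 FPKM in Unstimulated, 13.9 and 15.1 FPKM in Control and 34.2 and 37.1 FPKM in SMF.

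The partners of these proteins behaved less uniformly. Of 12 genes of the CCR4-NOT deadenylase and its poly(A)-binding protein, 0 were called lower and 1 higher in Control (12.6% and 12.3% of all genes), Cnot9 (1.45, from 2.93 and 3.76 FPKM to 10.6 and 11.03 FPKM), and 5 were called higher in SMF against Unstimulated (22.4% of all genes). Of 8 Pdcd4 partners, Eif4a1, the helicase that Pdcd4 inhibits, rose in Control by 1.02 (SE 0.21, limma, Benjamini-Hochberg adjusted p = 0.0384) from 122 and 141 FPKM to 284 and 249 FPKM. Its relative Eif4a2 fell by 1.20 (SE 0.25, adjusted p = 0.0393) from 205 and 211 FPKM to 99.6 and 81.0 FPKM. This is the fall of the gene total. The Eif4a2 transcript of highest mean FPKM, of 11 exons, did not fall in replicate 1. It was at 12.2 and 61.9 FPKM in Unstimulated libraries, 14.6 and 31.7 FPKM in Control and 82.1 and 68.7 FPKM in SMF. In SMF, Eif4a1 was at 731 and 786 FPKM, and it was called higher than in Control by 1.51 (limma, Benjamini-Hochberg adjusted p = 0.136).

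Of 8 Txnip partners, 4 were called higher and 1 lower in Control (12.3% and 12.6% of all genes). Slc2a3, the glucose transporter GLUT3, rose by 2.89 (SE 0.37, limma, Benjamini-Hochberg adjusted p = 0.0134), from 5.98 and 5.85 FPKM to 59.6 and 42.2 FPKM, and was at 10.8 and 13.7 FPKM in SMF, called lower there than in Control (-1.96, adjusted p = 0.136). Slc2a1, the glucose transporter GLUT1, rose by 1.87 in Control, to 20.2 and 16.2 FPKM, and stood at 20.6 and 19.6 FPKM in SMF. Txn1, the thioredoxin that Txnip binds, was listed at 0 and at 16.2 FPKM in Unstimulated libraries and at 161 and 114 FPKM in Control. Mlx, a partner of the glucose-sensing factors that drive Txnip, rose by 1.55, and Arrdc3, an arrestin-domain relative of Txnip, fell by 2.04 in Control, from 11.02 and 3.25 FPKM to 0.776 and 0.702 FPKM.

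Over the receptor, regulator and partner lists, 55 genes were tested, of which 16 were called lower and 9 higher in Control, 15 and 14 in SMF against Unstimulated, and 1 and 8 in SMF against Control. The shares over all tested genes in the same order were 12.6% and 12.3%, 14.8% and 22.4%, and 5.72% and 12.5%. The lists were drawn up with earlier results of these samples known, so the direction of a list carries no independent weight.

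**Figure D4:**
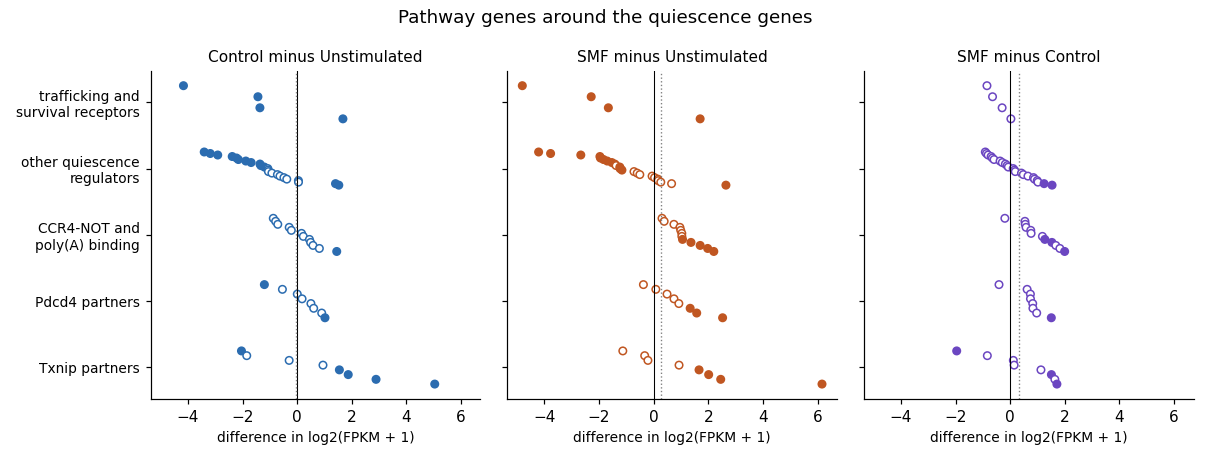
Differences in log2(FPKM + 1) for genes around the 10, by list and comparison (1 circle per tested gene, filled when called). The dotted line is the median of all tested genes. Of the other quiescence regulators 11 of 23 are called lower in Control, and of the CCR4-NOT genes 0 of 12. Rb1 is among the 11 through a short transcript, and Rbl2 through a gene total whose 22-exon transcript overlapped between Unstimulated and Control.

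Reads in these files were given to genes by strand, and 3 of the 10 genes face another gene on the opposite strand with which they share exon bases. Txnip shares 606 of its 3123 exon bases with the antisense gene Gm15441, which was at 1463 and 1186 FPKM in Unstimulated libraries, 448 and 328 FPKM in Control, and 105 and 124 FPKM in SMF. Klf3 shares 404 of 11243 bases with Gm20033, at 322 and 128 FPKM, 43.0 and 13.1 FPKM, and 6.74 and 6.64 FPKM. Pdcd4 shares 185 of 2556 bases with Bbip1, at 161 and 166 FPKM, 61.2 and 40.5 FPKM, and 20.4 and 14.7 FPKM. The facing gene was the higher one in 6 of 6 libraries for Txnip and Klf3 and in 4 of 6 for Pdcd4, and all 3 facing genes fell in Control, at -1.78, -3.03 and -1.70 in the order given. Listed genes named above also share exon bases with an opposite-strand gene. Among them are Lef1 (1208 bases with Gm43352, at 369 and 390 FPKM in Unstimulated libraries), Rbl2 (693 with Aktip) and Mlx (385 with Psmc3ip). The part of such overlaps in their differences was not tested.

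**Figure D5:**
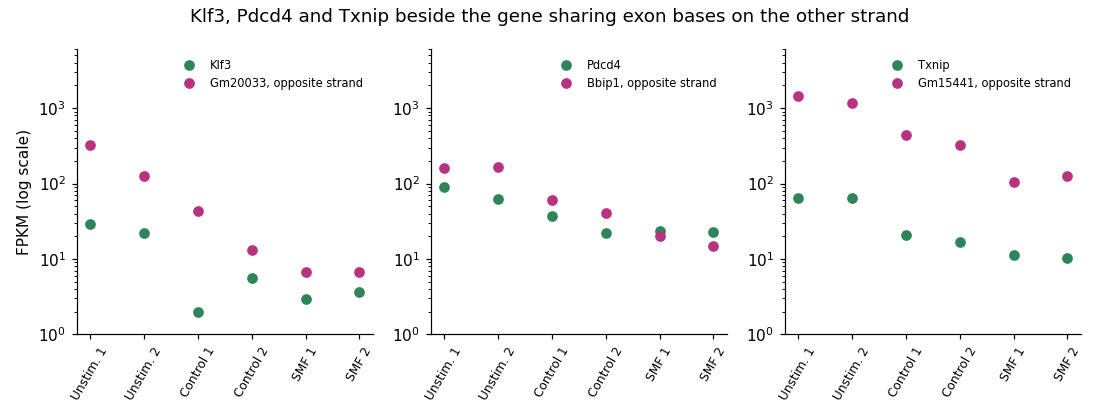
Level in FPKM (log scale) of Klf3, Pdcd4 and Txnip in each of the 6 libraries (green) beside the gene on the opposite strand that shares exon bases with it (magenta). The magenta points lie above the green ones in every library for Klf3 and Txnip, and both fall from Unstimulated to stimulated libraries.

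Among 811 pairs in the whole table of an annotated antisense gene and a protein-coding gene sharing at least 100 exon bases, the antisense gene had the higher mean FPKM in 66.1%. Malat1, a very abundant nuclear RNA, was at 90.8 and 108 FPKM in Unstimulated libraries, while Gm37376 on its other strand was at 7553 and 7387 FPKM. A level given here is thus the level of reads assigned to the annotated strand, and whether that assignment matched the library kit was not tested.

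The falls of the 3 genes were also read from the exons that share no base with the facing gene, a split chosen after the values were seen. For Txnip those exons held 16246 and 10713 sequenced bases (coverage times length) per 100 Mb of all coverage in Unstimulated libraries, 5818 and 4156 in Control and 576 and 1671 in SMF. For Klf3 the values were 12695 and 12513, 85.4 and 1525, and 1640 and 1089, and for Pdcd4 they were 21683 and 14092, 8270 and 5610, and 6222 and 3905. The log2 ratio of group means in these exons was -1.44 for Txnip, -3.97 for Klf3 and -1.37 for Pdcd4 in Control, beside gene-level differences of -1.71, -2.56 and -1.36 (limma, log2(FPKM + 1)). The Txnip exons that share bases with Gm15441 held 5316 and 6655 in Unstimulated libraries, 1148 and 1070 in Control and 2628 and 1513 in SMF. There SMF lay above Control, while in the exons sharing no base it lay below. Within the Txnip transcript of highest mean FPKM the coverage assigned to exons was uneven, with 19.7 and 16.4 reads per base in exon 3 of 148 bases and 0.896 and 1.43 in its last exon of 1405 bases in Unstimulated libraries.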

How the data were processed

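The authors sequenced RNA from CD8+ T cells (SMARTer Stranded Total RNA-Seq Pico Input kit). Per the submitters' processing notes and file headers, reads were trimmed (Trimmomatic 0.36), aligned to GRCm38 with HISAT2 and quantified with StringTie 1.3.5 over annotated GENCODE vM19 transcripts, with the forward strand setting. The deposited per-library files hold FPKM, TPM and coverage per transcript and no read counts, so the number of reads per library is unknown. FPKM was summed per gene and tested as log2(FPKM + 1) with limma 3.58.1 in R 4.3.3, using the 6 libraries of 3 groups, a minimum mean of 1 FPKM per gene and a variance trend, and the fit was tested on simulated data. The study's thresholds (fold 2, p 0.05) were used, with Benjamini-Hochberg values beside them. Genes and lists were chosen with earlier results of these data known. All 10 genes were named, and from each list those called in Control against Unstimulated, at most 8 by size of change, with the receptors and Il2ra, Gzmb and Mki67. A few listed genes are not reported here and were left out of the list counts. Same-numbered replicates of Unstimulated and Control carry one folder date in the headers, and their replicate differences correlated at 0.0963 over 14991 genes (0.0301 and 0.0206 for the pairs with SMF). Gene types were read from GENCODE M21. A series table with 3 value columns that match no label was not used here.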

Additional observations from a re-analysis of the deposited data

How the results depend on the processing

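In Control against Unstimulated the count of the 10 genes called lower was 4 to 6 and higher 0 under every alternative run, and all 6 differences stayed negative in every comparison with Unstimulated cells. The fit with a replicate block gave 6 lower and 0 higher there, 6 and 1 in SMF against Unstimulated and 0 and 1 in SMF against Control, and it changed no call of a gene of the 10. In SMF against Control, higher calls were 2 with gene TPM and 0 with the Benjamini-Hochberg rule, and 0, with 1 lower call (Txnip), when libraries were scaled to one median, one 75th percentile or the same protein-coding total (the last chosen after seeing the data). Under the latter pair SMF against Unstimulated had 0 higher. Pathway genes called lower in SMF against Control were then 4, 5 and 4, and 0 under the Benjamini-Hochberg rule, which also left 8 in Control against Unstimulated. The cause was not tested. With 1 library left out, lower and higher calls of the 10 ranged over 5 to 6 and 0 to 0 in Control against Unstimulated, 4 to 6 and 1 to 1 in SMF against Unstimulated and 0 to 0 and 1 to 2 in SMF against Control, and pathway genes called lower over 13 to 16, 10 to 16 and 1 to 3; the lone library is then assumed to vary like the others. Of the genes called in all tests, 68.6% were higher in SMF against Control as deposited, 76.1% with TPM, and 37.8%, 39.1% and 41.6% under the 3 scalings, and 60.1%, 50.6%, 49.1% and 44.1% (TPM aside) in SMF against Unstimulated. Sign changes were seen only in differences that were not called. With one median per library Btg2 was 0.037 in Control against Unstimulated, Btg2, Klf6 and Foxp1 were -0.039, -0.091 and -0.074 in SMF against Unstimulated, and Tob1 and Btg2 were -0.15 and -0.076 in SMF against Control. With one 75th percentile Klf6, Foxp1 and Btg2 were -0.16, -0.14 and -0.10, and Tob1 and Btg2 -0.074 and -0.065, and with the protein-coding total -0.31, -0.29 and -0.24, and -0.064 and -0.049. With TPM Klf3 was 0.070 in SMF against Control. With 1 library left out, ranges that crossed 0 were, in Control against Unstimulated, -0.53 to 0.43 for Btg2 and -0.15 to 0.47 for Slfn2, in SMF against Unstimulated, -0.20 to 0.53 for Klf6, -0.096 to 0.45 for Foxp1 and -0.0053 to 0.43 for Btg2, and in SMF against Control, -0.30 to 1.53 for Klf2, -0.62 to 0.51 for Klf3, -0.22 to 0.61 for Tob1, -0.22 to 0.75 for Btg2 and -0.66 to 0.083 for Pdcd4. With 2 libraries a group, no read counts and 1 set of SMF libraries, small differences cannot be resolved.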

Other observations

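The relatives of the 10 genes were mostly low. Of 6 other Krüppel-like factors tested, 0 were called in Control against Unstimulated (12.6% of all genes lower and 12.3% higher), too few genes to set against these shares. Klf13, the most abundant of them, was at 27.2 and 24.4 FPKM in Unstimulated libraries, 20.8 and 11.1 FPKM in Control and 8.86 and 9.12 FPKM in SMF, and was called lower in SMF than in Unstimulated (-1.42, limma, Benjamini-Hochberg adjusted p = 0.0525). Klf5 and Klf12 were listed at 0 in all 6 libraries.

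Of 5 other Schlafen genes tested, Slfn3 was listed at 0 in both Unstimulated libraries, at 1.117 and 7.40 FPKM in Control and at 12.6 and 19.1 FPKM in SMF. It was called higher in SMF than in Control by 1.97 (limma, Benjamini-Hochberg adjusted p = 0.223). Slfn1 was at 25.96 and 32.3 FPKM, 23.0 and 15.2 FPKM, and 14.8 and 53.5 FPKM, with the SMF libraries on both sides of the others. Slfn5 was called lower in SMF than in Unstimulated (-2.23, limma, Benjamini-Hochberg adjusted p = 0.0755), and Slfn8 and Slfn9 were not called. Schlafen genes are close copies in 1 cluster, and reads shared between them can be split by the quantification. Of the Foxp1 relatives, Foxp4 was called higher in Control by 1.07, from 4.39 and 3.92 FPKM to 11.1 and 8.69 FPKM, and Foxp3, the regulatory T cell factor, was not called at 20.7 and 4.92 FPKM in Unstimulated and 11.9 and 19.3 FPKM in Control. Of all tested genes, 12.3% were called higher in Control than in Unstimulated. In SMF, 12.5% were called higher than in Control and 14.8% lower than in Unstimulated.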
